A study of Mus musculus with 12 samples.

Results

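A set of 8 genes of Wnt signalling was examined in the authors' deposited tables of regions whose DNA methylation differed between an arsenite line and a control line of mice: Wnt3, Wnt16, Fzd9, Ror2, Rspo4, Porcn, Dact2 and Csnk1e. They were chosen by measured values, with earlier results in view: each lies nearest, by transcription start site (TSS), to a region whose difference between the lines put it in a table. Every region under these 8 symbols was taken, 16 of the 1711 regions in all 3 tables. The tables name 1473 genes in all. Because listing chose the genes, the counts and differences below are descriptions without a test.

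The series profiled liver DNA of F2 males of the strain C3H/HeN, aged 74 weeks in the 12 samples with labels here. In the arsenite line the F1 parents had met arsenite in the womb, and its dose is not given in the sources used here. The method was reduced-representation bisulfite sequencing, which cuts DNA at CCGG with the enzyme MspI and reads methylation in the CpG-rich short fragments. The groups of the arsenite line were AAN (normal liver), AATn (non-tumor liver) and AATt (liver tumor), and those of the control line were CCN, CCTn and CCTt. Each comparison set an arsenite-line group against the control-line group of the same tissue. AAN, AATn, AATt and CCTn had 3 samples each, and the labels here give no number for CCN and CCTt. CCN and CCTt belong to an earlier deposit and enter here only through the authors' comparisons. In normal liver and tumors, a difference between lines therefore cannot be told apart from a difference between deposits. Only in non-tumor liver were both groups part of this series. Whether replicates are separate animals is not stated in the labels. AATn and AATt titles carry the same 3 numbers, and whether a number marks 1 mouse is not stated either, so the differences in these tissues may not be independent.

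The tables hold 1 difference per region and comparison, in percentage points of methylation, with no value per sample, so no difference below carries a replicate error and read depth is unknown. No source used here defines the sign. Positive values are taken to mean more methylation in the arsenite line, for each tissue alike, and if a table was made the other way round its directions turn over. Each listed difference is at least 20 points in size, so smaller differences were not seen, and a gene missing from a table was not shown to be the same in both lines. In whole tissue, a change in the mix of cells and a change within a cell type cannot be told apart. The tissue labels could not be checked against cell type markers, since no level per sample was analysed here.

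Wnt proteins are secreted, lipid-modified ligands that bind Frizzled receptors on nearby cells. In the canonical branch, Dishevelled proteins then block the destruction of β-catenin, which drives transcription with TCF/LEF factors, while other branches act through receptors such as Ror2 on cell shape and movement. In the liver this pathway sets the gene programme of hepatocytes around the central vein, and a part of liver cancers carry mutations that keep β-catenin active.

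Wnt3, Fzd9 and Ror2 had a tumor region within 10 kb of the listed TSS, and their promoters are shown to place those regions beside the sequence at the start of each gene. The windows run from 250 bases before to 50 bases after the start in RefSeq on GRCm38.p6, 5′ to 3′ on the strand of the gene, with each CCGG site of MspI in capitals. They are the windows chr11:103773925-103774224 (plus strand), chr5:135250998-135251297 (minus strand) and chr13:53286075-53286374 (minus strand).
Wnt3: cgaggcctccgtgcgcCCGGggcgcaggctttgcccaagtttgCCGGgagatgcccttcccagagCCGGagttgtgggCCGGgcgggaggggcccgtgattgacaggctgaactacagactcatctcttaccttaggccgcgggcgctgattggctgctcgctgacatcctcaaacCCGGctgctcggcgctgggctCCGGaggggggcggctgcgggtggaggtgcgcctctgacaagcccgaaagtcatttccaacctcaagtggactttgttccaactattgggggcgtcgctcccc
Fzd9: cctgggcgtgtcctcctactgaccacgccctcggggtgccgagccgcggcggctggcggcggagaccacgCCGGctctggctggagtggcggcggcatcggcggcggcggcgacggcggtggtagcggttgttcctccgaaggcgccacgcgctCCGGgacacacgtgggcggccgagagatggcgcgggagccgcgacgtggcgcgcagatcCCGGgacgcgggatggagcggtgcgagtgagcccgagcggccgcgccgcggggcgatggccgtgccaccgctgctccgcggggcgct
Ror2: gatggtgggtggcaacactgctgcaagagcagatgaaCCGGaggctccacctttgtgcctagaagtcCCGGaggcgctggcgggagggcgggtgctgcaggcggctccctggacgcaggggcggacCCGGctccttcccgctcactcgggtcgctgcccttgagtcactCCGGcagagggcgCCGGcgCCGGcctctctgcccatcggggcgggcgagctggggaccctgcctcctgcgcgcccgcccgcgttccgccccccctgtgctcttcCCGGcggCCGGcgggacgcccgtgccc
The Wnt3 window holds 24 CpG pairs and 6 CCGG sites, that of Fzd9 53 and 3, and that of Ror2 32 and 8. The median over the 32851 promoter windows of that table is 7 CpG pairs, and 52.8% of the windows hold at least 1 CCGG, a motif that reads the same on both strands. Promoter windows were found for 7 of the 8 genes (not Porcn), 10 windows in all because Csnk1e has 4. CCGG occurs in 9 of these 10 windows, Wnt16 being the exception with 10 CpG pairs and no CCGG. No region listed under the 8 genes overlapped any of the 10 windows. The closest lay 2741 bp from the Wnt3 window and 3038 bp from that of Fzd9. Next came 8459 bp from a Csnk1e window and 9217 bp from that of Ror2. The listed differences thus stood outside these promoter sequences. This was not particular to the 8 genes, since few listed regions of any gene lay near a start. Within 1 kb of the listed TSS, a wider reach than these windows, lay 12.15% of all normal, 5.26% of all non-tumor and 4.65% of all tumor regions.

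By tissue, the 8 genes had 2 regions in the normal table, 2 in the non-tumor table and 12 in the tumor table. In normal liver both differences were negative (of the 107 regions of that table, 69.2% were negative and 30.8% positive). In non-tumor liver both were positive (of the 57 regions of that table, 59.6% were positive and 40.4% negative). In tumors 8 were negative and 4 positive (of the 1547 regions of that table, 31.3% were negative and 68.7% positive). The positive share of 33.3% among the 12 has an exact 95% Clopper-Pearson interval of 9.93% to 65.1%, which covers counting error only. The interval treats regions as independent, yet the 12 came from 7 genes, so it may be too narrow and is not a test. The genes were proposed with this split known, so it is no evidence about Wnt genes as a class. All of the 8 genes but Wnt16 were named in the tumor table.

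**Figure D1:**
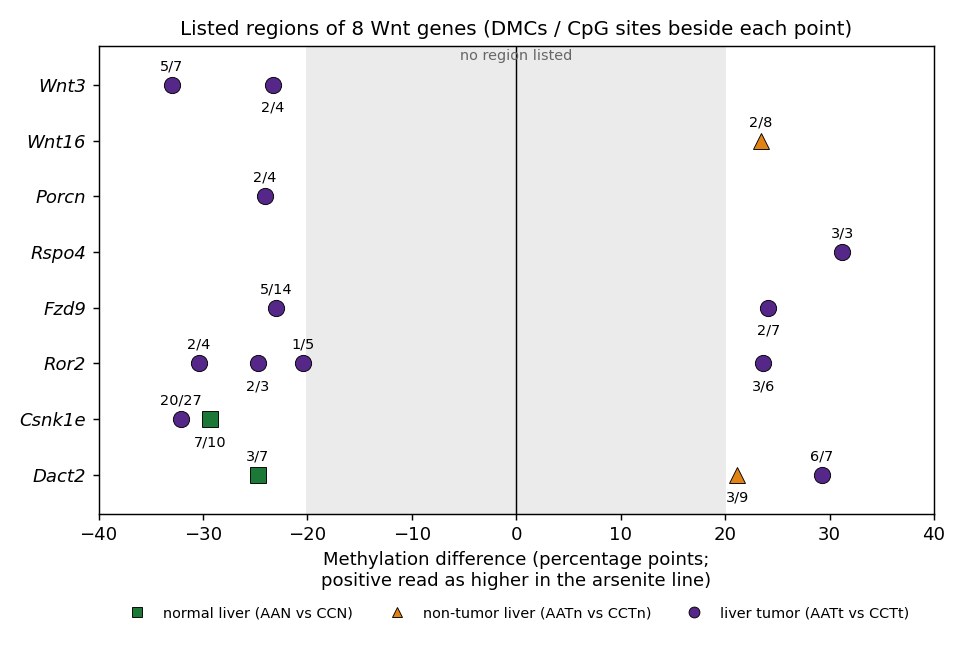
Methylation difference in percentage points (x axis) of each of the 16 listed regions, by gene (y axis) and table (marker), with the number of differentially methylated CpGs over all CpG sites beside each point; no error can be drawn because the tables hold 1 value per comparison. Tumor points of Wnt3, Porcn and Csnk1e lie on the negative side, those of Fzd9 and Ror2 on both, and Dact2 lies at -24.8 points in normal liver and at 21.1 and 29.2 points in the other 2 tissues.

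Among the ligands, Wnt3, which is needed to form the primitive streak of the mouse embryo, had 2 tumor regions and both were negative. The first lay 2992 bp upstream of its TSS (chr11:103771138-103771183). The authors' deposited table gave it -33.0 points over 7 CpG sites, of which 5 were called differentially methylated (DMCs). Its 46 bp made it the shortest and, at 15.2 CpG sites per 100 bp, the most CpG-dense of the 16 regions. The second lay 34739 bp downstream of the TSS, inside the Wnt3 span (chr11:103808913-103808997). There the authors' deposited table gave -23.3 points, with DMCs at 2 of 4 CpG sites. The regions were 37729 bp apart, and the difference was larger at the one upstream of the gene.

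The upstream Wnt3 region also fell in the RefSeq span of another ligand gene, Wnt9b, which endothelial cells of the central vein express in mouse liver. That span, 103727362 to 103775272 on chromosome 11, reaches past the start of Wnt3. The only Wnt9b promoter window in the RefSeq table ends 21066 bp before the region, so by promoter the region was closer to Wnt3.

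Wnt16, a ligand known for its part in cortical bone, was named in the non-tumor table only. The region (chr6:22206258-22206459) had a difference of 23.4 points over 8 CpG sites, including 2 DMCs, in the authors' deposited table. It lay 81768 bp upstream of the Wnt16 TSS and inside the span of the neighbouring gene Cped1. Although Wnt16 is the nearest start, the region was thus not in the gene itself.

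Porcn encodes the acyltransferase of the endoplasmic reticulum that attaches the lipid Wnt proteins need for secretion, and it lies on the X chromosome, of which males have a single copy. Its tumor region (chrX:8217551-8217650) was at -24.1 points over 4 CpG sites, including 2 DMCs, in the authors' deposited table. The region lay 11027 bp upstream of the TSS, within the span of the long noncoding RNA gene Gm33135, whose nearest promoter window was 2767 bp away.

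Rspo4, an R-spondin that amplifies Wnt signals by keeping receptors at the cell surface and is known in humans for nail growth, had the largest positive difference among the 16 regions. The authors' deposited tumor table gave 31.2 points at chr2:151811014-151811183, and all 3 CpG sites were DMCs. With 1.76 CpG sites per 100 bp it was the sparsest of the 16. It lay 31744 bp upstream of the TSS and outside any gene span.

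Both receptor genes had tumor differences of each sign. Of the 170 genes with at least 2 tumor regions, 66 (38.8%) had both signs, so mixed signs were not rare in that table. Fzd9, a Frizzled receptor with a gene of only 2110 bp, had its regions upstream, between it and Fkbp6. The nearer one, 3290 bp upstream (chr5:135254336-135254616), was at -23.0 points with 5 DMCs among 14 CpG sites in the authors' deposited table. The farther one, 17704 bp upstream (chr5:135268750-135269087), was at 24.1 points with 2 DMCs among 7 sites. A stretch of 14133 bp separated these opposite differences.

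Ror2, a receptor tyrosine kinase that binds Wnt5a and acts outside the β-catenin branch, was 1 of 7 genes with 4 tumor regions, the highest number in that table. All 4 lay inside its span of 176808 bp. From the start of the gene inward, the authors' deposited table gave -30.4 points 9252 bp from the TSS (chr13:53276804-53276857), 23.7 points at 22895 bp (chr13:53263087-53263214), -24.7 points at 96943 bp (chr13:53189086-53189166) and -20.4 points at 131944 bp (chr13:53154019-53154165). DMCs made up 2 of 4, 3 of 6, 2 of 3 and 1 of 5 CpG sites in the same order. The positive region thus stood between negative ones, 13589 bp from the nearest. The difference deepest in the gene was the smallest of all 16 and the only one that rested on 1 DMC. By promoter window instead of listed TSS, all 4 regions were closer to long noncoding RNA genes, by a small margin for the pair nearer the start of Ror2. For that pair, Gm33574 was 9073 and 22716 bp away, and the Ror2 window 9217 and 22860 bp. For the other pair, Gm52058 was 19315 and 15305 bp away, and the Ror2 window 96908 and 131909 bp.

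**Figure D2:**
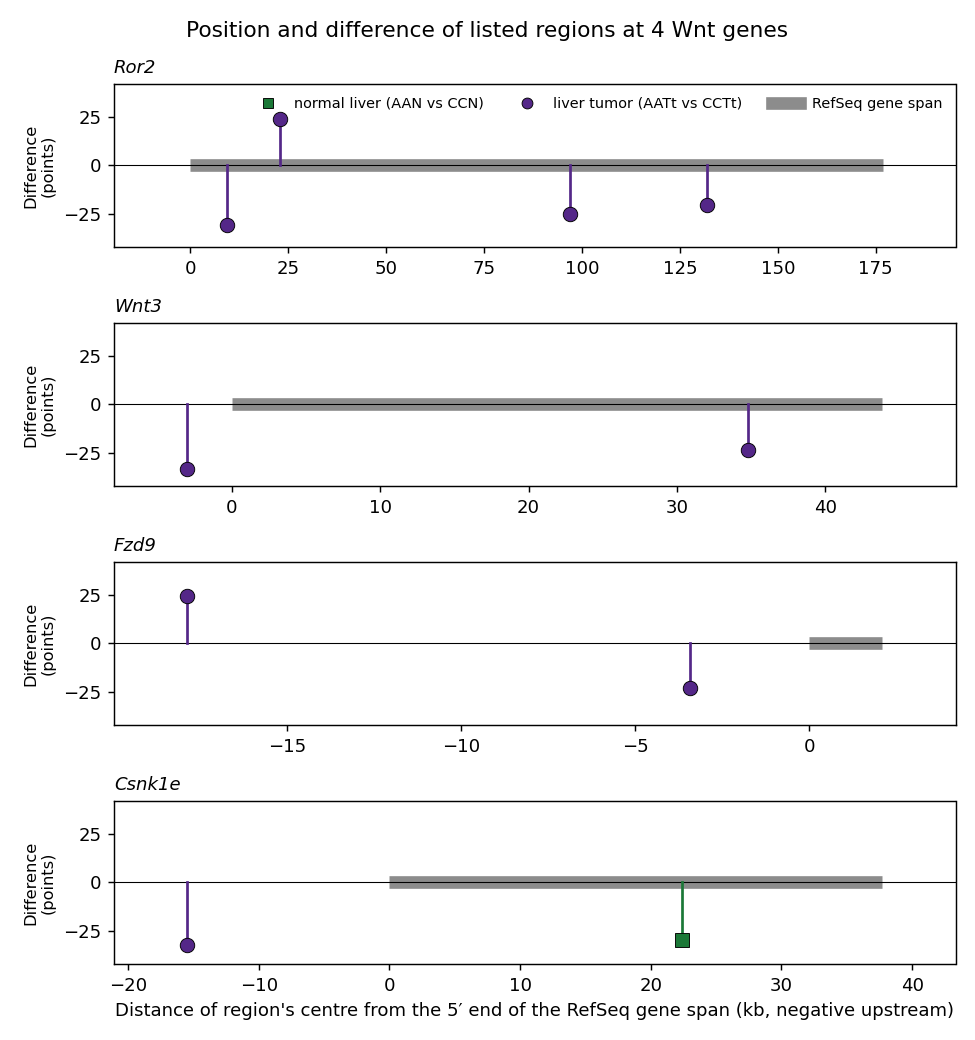
Methylation difference (y axis, percentage points) of each listed region against its distance in kb from the 5′ end of the RefSeq gene span (x axis, negative upstream) for Ror2, Wnt3, Fzd9 and Csnk1e; the grey bar is the gene span, which for Csnk1e begins upstream of the listed TSS. All 4 Ror2 regions lie inside the gene with 1 positive among 3 negative ones, both Fzd9 regions lie upstream with opposite signs, and both Csnk1e regions are negative on different sides of the span's start.

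Csnk1e encodes casein kinase 1 epsilon, which phosphorylates Dishevelled as well as the PER proteins of the circadian clock. It was named in the normal and tumor tables, with negative differences at separate places. In normal liver the region lay inside the gene, 8509 bp downstream of the listed TSS (chr15:79433001-79433309). The authors' deposited table gave -29.3 points there with 7 DMCs among 10 CpG sites, the highest number of DMCs in any of the 107 normal regions. In tumors the region lay 28833 bp upstream of the listed TSS (chr15:79470889-79471239), between Csnk1e and the potassium channel gene Kcnj4. There the authors' deposited table gave -32.1 points with 20 DMCs among 27 CpG sites, the most of the 16 regions. The regions were 37579 bp apart, and neither place was listed in the other table. They were measured against transcripts with different starts, 79441817 in the normal and 79442056 in the tumor table. By span the tumor region was closer to Kcnj4 (8987 bp) than to Csnk1e (15310 bp).

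Dact2, whose product binds Dishevelled, was the only one of the 8 genes named in all 3 tables, each time for the same place. The region of the normal and tumor tables had identical ends (chr17:14094720-14094816), and that of the non-tumor table ran 37 bp farther (to 14094853) with 9 CpG sites in place of 7. In normal liver the authors' deposited table gave -24.8 points with 3 DMCs. In non-tumor liver the authors' deposited table gave 21.1 points with 3 DMCs. In tumors the authors' deposited table gave 29.2 points with 6 DMCs. The difference was thus negative in normal liver and positive in the other 2 tissues, as long as the tables share 1 sign. No test of the change of sign was possible without values per sample. In normal liver and tumors the lines also came from different deposits, so line and deposit cannot be told apart there. The normal and tumor tables shared 11 regions, of which 6 had opposite signs, that of Dact2 among them. The normal and non-tumor tables shared 3 regions, and that of Dact2 was the 1 with opposite signs. The non-tumor and tumor tables shared 4, of which 3, Dact2 among them, had the same sign.

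The Dact2 place was also the only one in the whole series found in all 3 tables. It is far from the gene itself, 109015 bp from the listed TSS in the normal and tumor tables, and outside any gene span. The nearest protein-coding span in RefSeq was that of 4930488N24Rik, 7001 bp away from the 97 bp region. The name Dact2 therefore comes from the start nearest in the authors' annotation.

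The 12 tumor regions were set beside the whole tumor list in size and place. Their median length was 114 bp (139 bp in the whole tumor table), with a median of 5.5 CpG sites (4 in the table) and a median DMC share of 50% of the sites (40% in the table). A single DMC supported 1 of the 12, against 35.6% of all tumor regions. Within 10 kb of the TSS lay 3 of the 12, those of Wnt3, Fzd9 and Ror2, all of them negative, and 24.6% of the table. Between 10 and 100 kb lay 7, of which 4 were negative, and beyond 100 kb lay 2, of which 1 was negative. In the whole table the negative share was 40.4% within 10 kb, 32.3% between 10 and 100 kb and 19.6% beyond. Inside a gene span stood 7, of which 6 were negative, and outside any span stood 5, of which 2 were negative. Over the whole table, 34.6% of the regions inside a span and 27.2% of those outside were negative. Both regions with at least 10 CpG sites, at Csnk1e and Fzd9, were negative, as were 51.2% of such regions in the table.

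**Figure D3:**
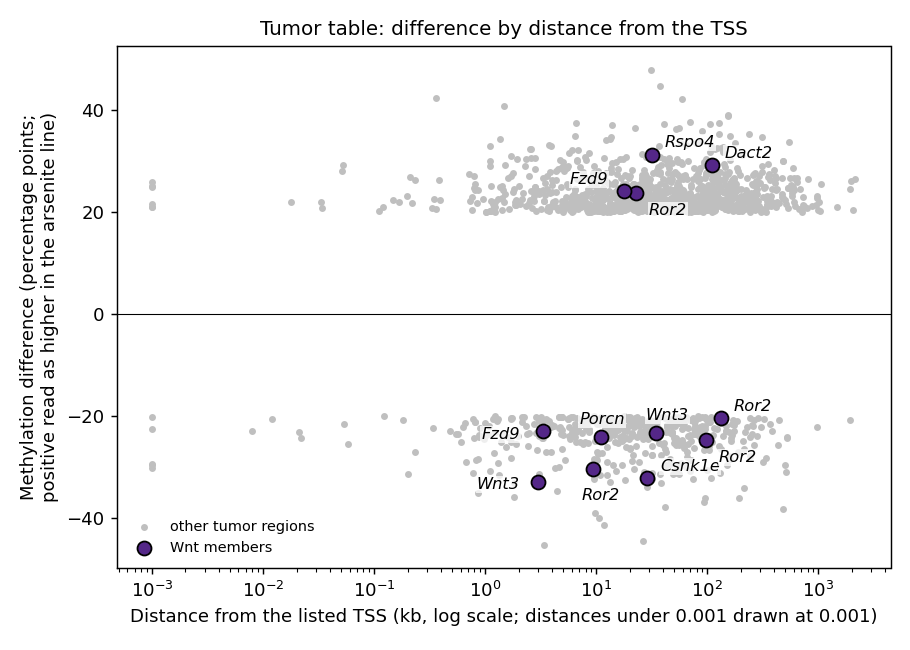
Methylation difference (y axis, percentage points) of all 1547 tumor regions against distance from the listed TSS in kb (x axis, log scale); large points are the 12 regions of the Wnt genes and grey points the others. The 3 within 10 kb of a TSS are negative, and the 4 positive ones lie 17704 bp or farther from it.

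A wider list of 125 genes of the pathway was sorted by role, with the 8 genes among it. Tumor regions named 18 of these genes, with 16 negative and 9 positive regions. Leaving out the 8 chosen genes, 11 of the other 117 (9.40%) were named, against 5.08% of the 21900 protein-coding genes in RefSeq, with 8 negative and 5 positive regions. Of these 13 regions, 7 rested on 1 DMC. With at least 2 DMCs per region, 5 of the 117 genes (4.27%) were named, against 3.35% of protein-coding genes. The 8 genes were left out because they were listed, which lowers the share of the rest in each table. The shares of protein-coding genes keep every listed gene, so the 2 kinds of share are not like for like. With the 8 kept, 14.4% of the 125 genes were named in tumors, a share that their choice raises. In the normal and non-tumor tables none of the other 117 was named (0.42% and 0.228% of protein-coding genes were). How many of these genes had covered CpG sites, and so could have been named, is not known here.

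The 5 tumor regions of ligand genes were all negative, as were 31.3% of all tumor regions. They came from 4 of 20 ligand genes (5.08% of protein-coding genes were named in tumors). Of these 5 regions, 2 belong to Wnt3, which was chosen with its values known. The others were Wnt7b (-22.3 points, 4 of 11 sites DMCs, inside the gene), Wnt4 (-21.3 points, 1 of 5 sites a DMC, 11547 bp upstream) and Wnt8a (-20.1 points, 6 of 24 sites DMCs, inside the gene) in the authors' deposited table. Of the 4 genes of ligand maturation, Wls, the carrier that brings Wnt proteins to the cell surface, was positive (24.1 points, 1 of 3 sites a DMC, 38963 bp upstream), opposite to Porcn. Receptor genes had 4 positive and 4 negative regions, the only other gene being Fzd1, positive at 21.5 and 21.9 points, each with 1 DMC, more than 100 kb from its TSS.

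Inhibitor genes had 1 region of each sign, from 2 of 16 genes. Only 1 of 14 nuclear effector genes was named, with 1 region, and 1 of 11 liver target genes, with 2 regions. These were negative, as were 31.3% of all tumor regions. Kremen2, a receptor for Dickkopf inhibitors, was positive in the authors' deposited table (25.1 points, 1 of 3 sites a DMC, 1120 bp downstream of its TSS), and Apcdd1, a membrane inhibitor, was negative (-24.6 points, 1 of 4 sites a DMC). Of the formin genes whose products bind Dishevelled, Daam2 was positive (21.1 points, 2 of 5 sites DMCs) and Daam1 negative (-20.8 points, 1 of 4 sites a DMC). The corepressor gene Tle3 was negative (-23.9 points, 12 of 27 sites DMCs, 137497 bp from its TSS). Both regions of Tbx3, a transcription factor gene that β-catenin activates in liver, were negative in the authors' deposited table. They were at -23.1 points (7 of 18 sites DMCs, 13860 bp upstream) and -21.8 points (13 of 42 sites DMCs, 7472 bp upstream), and both lay in the span of the antisense gene Tbx3os1. Of the 7 planar polarity genes none was named. A tumor region listed under Gm15401 (-24.2 points, 4 of 7 sites DMCs) lay inside Tcf7l1, a gene of the TCF/LEF family, and was not counted.

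**Figure D4:**
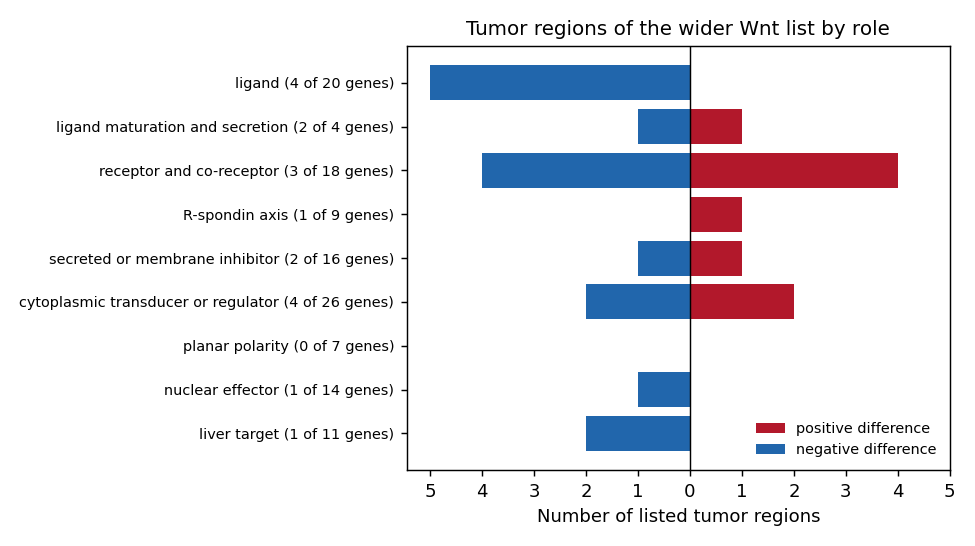
Number of listed tumor regions with a negative difference (left of 0) and a positive one (right of 0) for each role of the wider Wnt list, with the number of genes named in brackets. The 5 ligand regions are all negative, and the receptor regions divide into 4 and 4. These counts include the 8 chosen genes, and without them 3 ligand regions, all negative, and 2 receptor regions, both positive, remain.

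No region of another gene was listed within 100 kb of any of the 16 regions in any table.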

How the data were processed

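Reduced-representation bisulfite sequencing was done on liver DNA of 12 samples, 3 in each of AAN, AATn, AATt and CCTn, at 74 weeks of age. The submitters' processing notes name build mm10 and the tools Bismark, Trim Galore, bedtools 2.25.0 and methylKit, with no role or order. Caller, coverage minimum and significance threshold of the regions: not given in the sources used here. The deposited tables give, per region, its coordinates, methylation difference in percentage points, CpG sites, differentially methylated CpG sites, nearest TSS and gene. Depth per sample is unknown, so no detection limit is given.

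Rows were selected by gene symbol with Python 3.11.15 and pandas 2.3.3. RefSeq accessions of all 16 regions matched the named gene in the RefSeq table of GRCm38.p6, which supplied gene spans and promoters; exons and UTRs were not told apart. Coordinates were read as 1-based. Intervals came from SciPy 1.17.1. All 8 genes, their host genes, every named gene of the 125-gene list and listed neighbours within 100 kb are reported. Genes and lists were chosen with earlier results of these data known. Nothing was tested. Alternatives set at least 2 DMCs, 25 points or 5 CpG sites, or assigned regions by gene span.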

Additional observations from a re-analysis of the deposited data

How the results depend on the processing

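Counts depended on how a region is given to a gene and on the size of difference asked for. Of the 12 tumor regions, 5 remained when a region counted only for genes whose span holds it, and 6 with the nearest RefSeq promoter window, an alternative chosen after seeing the data. Porcn has no promoter window in the reference used, so its region could not remain by that rule. The 2 normal regions became 1 by span and 0 by promoter window, and the 2 non-tumor regions 0 by span and 1 by promoter window. A difference of at least 25 points left 5 tumor, 1 normal and 0 non-tumor regions, and at least 5 CpG sites left 7 tumor regions. The 18 genes of the wider list named in tumors became 6 with at least 25 points, 11 with at least 5 CpG sites, 12 with at least 2 DMCs and 9 by span. Without the 8 chosen genes, 11 genes became 1 with at least 25 points, 6 with at least 5 CpG sites and 5 with at least 2 DMCs, a count added after seeing the data. The positive share of the tumor regions was between 20% and 42.9% under the 5 alternatives. Each of these kept a part of the same 12 regions, so a share inside the interval was likely beforehand and is no check. With at least 2 DMCs, 11 tumor regions remained, and the Dact2 place was in all 3 tables under each overlap rule tried. In all, 16 of 32 alternative values stayed within 1.5 times the reported count or inside the interval of the reported share. The 5 shares are among these 16. No paired analysis was possible because the tables hold 1 value per comparison and none per sample; leaving out a replicate was not possible for the same reason. Sign and depth are limits that the tables cannot settle.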
